A study of Homo sapiens with 24 samples.

Results

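The mRNA levels of 39 genes of homologous recombination and the Fanconi anemia pathway were followed in 2 osteosarcoma cell lines given THZ2, which binds CDK7 covalently and blocks this kinase of the transcription initiation machinery. The 39 genes were chosen by name, through the probe sets whose only gene symbol was one of them. 35 of the 39, out of 18132 genes so named on the array, had such a probe set, 96 probe sets in all, and BRCA2, RBBP8, FANCA and FANCD2 are not analysed here. Cells repair broken chromosomes and blocked replication forks by homologous recombination, in which the broken end is trimmed to a single strand and paired with the sister chromatid. BRCA1 and PALB2 prepare the trimmed end for pairing, paralog complexes assist it, and helicases and nucleases resolve the joined DNA. The Fanconi anemia pathway unhooks crosslinks between the strands, using a ubiquitin ligase core complex that marks FANCI and its partner, and it hands the resulting break to the same machinery. Osteosarcoma genomes are known for their many rearrangements, and tumour cells without this machinery depend on other repair routes.

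The study used SJSA-1 and U2-OS, both established human osteosarcoma lines grown in the same medium with serum and no other agent named. Each line was exposed for 6 h to THZ2 at 25, 100 or 400 nM or to DMSO, the solvent, and each of the 8 groups held 3 Affymetrix PrimeView arrays. Nothing in the labels says that the 3 arrays came from separate cultures, so p-values measure only the spread between arrays, which may be technical. A probe set's value was taken as an intensity on a linear scale, and the number of arrays limits its precision. Changes are given on the log2 scale of the intensity plus 16, which understates the change of dim genes. In what follows ± is the SD of an intensity or the standard error of a change, with n = 3 arrays a group, and "rose" and "fell" mean a limma adjusted p under 0.05 over the 16175 genes tested. Each gene is represented by its brightest probe set. All 35 members passed the filter on dim genes, a highest group mean of at least 12.73, and in U2-OS with DMSO each of them was above it.

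The 24 arrays fell into 3 sets that share exact values within but not between them, with median intensities of 23.4 to 25.5 in SJSA-1, of 36.6 to 37.3 in U2-OS at 400 nM and of 33.5 to 34.5 in the other U2-OS arrays. They were therefore taken as normalized apart, so for U2-OS the effects of the highest dose and of its array set cannot be told apart, and levels are not compared between the lines. The poly-A spike-in probe sets were brighter in every treated array at 100 nM than in the DMSO arrays of the same line, and they ranged from 7.33 to 9.0 (mean log2) across the 3 SJSA-1 arrays at 400 nM. With the arrays centred on them, the median change of all genes at 100 nM was -0.23 in SJSA-1 and -0.33 in U2-OS, where it was 0.06 in both as deposited. At 400 nM it was -0.51 in SJSA-1 and -0.17 in U2-OS, where it was 0.10 and 0.15 as deposited. Rises and falls below are therefore relative to the other genes on the array. In such bulk samples fewer cells of a type and less RNA per cell cannot be told apart. The extraction text of the labels names brain tissue, and the treatment text these cells. Of 10 bone or mesenchymal markers 8 to 10 exceeded the filter intensity in each group, with VIM brightest at 6608 to 8464. The 11 nervous tissue markers measured summed to 214 to 313 in SJSA-1 and to 861 to 1238 in U2-OS, with 6 to 7 of them at or over the filter intensity in SJSA-1 and 9 to 10 in U2-OS. NEFL was the brightest in U2-OS at 418 to 621, and SYP in SJSA-1 at 57.3 to 77.7, while AQP4 was under the filter intensity in every group. The 8 epithelial markers summed to 255 to 287 at 400 nM, against 148 to 183 with DMSO, in SJSA-1, and to 502 to 508 at 400 nM, against 307 to 328 with DMSO, in U2-OS. The 8 blood markers summed to 225 to 261 at 400 nM, against 157 to 184 with DMSO, in SJSA-1, and to 274 to 316, against 248 to 257, in U2-OS, and the part of these shifts in the results below was not tested.

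The promoters of 4 members are shown because these genes lie at the ends of the range of changes in at least 1 comparison. BLM fell most after NABP1 at 100 nM in both lines, and PALB2 did so in SJSA-1 at 400 nM. NABP1, the gene with the largest fall, and NABP2, the gene with the largest rise, encode alternative subunits of the same single-stranded DNA binding complex. The 250 bases before the RefSeq start site (GRCh38.p14) are written 5′ to 3′ on the gene's own strand, with capitals on each match, on either strand, to the CCAAT box (CCAAT), the ETS motif (CCGGAAG) or the Sp1 GC box (GGGCGG). The NABP1 window lies at chr2:191677886-191678135 on the plus strand, the NABP2 window at chr12:56224092-56224341 on the plus strand, the BLM window at chr15:90717096-90717345 on the plus strand and the PALB2 window at chr16:23641311-23641560 on the minus strand.
NABP1: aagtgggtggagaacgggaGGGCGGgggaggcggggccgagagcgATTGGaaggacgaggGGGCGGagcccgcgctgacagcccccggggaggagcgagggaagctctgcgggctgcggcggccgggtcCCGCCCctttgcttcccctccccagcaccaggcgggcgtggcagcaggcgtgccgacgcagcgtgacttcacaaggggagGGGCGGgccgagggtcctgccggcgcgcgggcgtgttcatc
NABP2: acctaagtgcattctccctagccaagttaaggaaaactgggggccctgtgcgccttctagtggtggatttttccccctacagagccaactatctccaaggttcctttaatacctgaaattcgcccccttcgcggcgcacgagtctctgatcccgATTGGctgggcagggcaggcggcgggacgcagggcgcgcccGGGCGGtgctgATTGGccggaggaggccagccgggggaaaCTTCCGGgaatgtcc
BLM: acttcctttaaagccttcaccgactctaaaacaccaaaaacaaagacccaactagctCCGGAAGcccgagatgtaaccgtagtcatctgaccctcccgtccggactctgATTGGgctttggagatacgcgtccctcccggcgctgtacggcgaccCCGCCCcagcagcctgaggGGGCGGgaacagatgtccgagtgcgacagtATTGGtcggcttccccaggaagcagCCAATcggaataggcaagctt
PALB2: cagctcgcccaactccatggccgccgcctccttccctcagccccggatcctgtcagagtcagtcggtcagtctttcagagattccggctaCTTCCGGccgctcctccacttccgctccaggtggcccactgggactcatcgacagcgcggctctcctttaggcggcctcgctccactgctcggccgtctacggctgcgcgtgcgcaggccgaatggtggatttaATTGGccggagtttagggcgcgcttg
The NABP1 window held 4 GC boxes and 1 CCAAT box, and no ETS match. The NABP2 window held 1 GC box, 2 CCAAT boxes and 1 ETS match. In the BLM window there were 2 GC boxes, 3 CCAAT boxes and 1 ETS match, and in the PALB2 window 1 CCAAT box, 1 ETS match and no GC box.

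Of the 35 measured members 30 had such windows in the RefSeq table, 40 windows in all, and DNA2, FANCI, NBN, RAD54B and WRN had none there. The GC box was in 62.5% of the 40 windows, against 42.6% of the 35116 windows of all genes, coding or not. The ETS motif was in 25% of the members' windows, against 8.52% of all windows, and the CCAAT box in 37.5%, against 32%. The TATA box (TATAAA) was in 2.5% of them, that of RAD52, against 10.7%, and the E box (CACGTG) in 0%, against 6.34%. Of 2 forms of the E2F motif, TTTCGCGC was in 2.5%, that of FANCC, against 0.439%, and TTTGGCGC in 0%, against 0.55%. Motifs were searched on both strands, and a window with overlapping matches counts once. A match is a string of letters and no evidence that a factor binds there.

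At 100 nM most of the members fell in both lines. In SJSA-1, 25 of 35 members (71.4%) fell and 3 rose, where 25.1% of all genes tested fell, 24.4% rose and 49.4% were called in either direction. In U2-OS, 22 (62.9%) fell and 1 rose, where 22.2% of all genes fell, 19.8% rose and 42% were called. The median change of the members was -0.38 in SJSA-1 and -0.57 in U2-OS, and that of all genes was 0.06 in both. Under other scalings, pseudocounts and probe set choices the median of the members ranged from -0.76 to -0.27 in SJSA-1 and from -1.06 to -0.29 in U2-OS. 21 members fell in both lines, and the share of all genes that did so was not counted. Among them BRIP1 and FANCM had SJSA-1 means that were all under the filter intensity. BARD1, BLM, MUS81, NABP1, PALB2 and RMI1, 6 of the 21, fell by at least 1 on the log2 scale in both. Of all genes 6.2% fell by that much in SJSA-1 and 4.08% in U2-OS. FANCB, FANCF, RAD18 and RAD54L fell in SJSA-1 and FANCI in U2-OS, while none of these 5 passed the threshold in the other line. With the arrays centred on the spike-ins 24 members fell in SJSA-1 and 33 in U2-OS and none rose, while of all genes 4838 fell and 83 rose in SJSA-1 and 7151 fell and 95 rose in U2-OS. Centred on each array's median, 24 members fell and 5 rose in SJSA-1, with 3793 of all genes lower and 5814 higher, where as deposited these were 4055 and 3940.

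At 25 nM the lines gave different counts. In SJSA-1 7 members fell and none rose, where 8.25% of all genes were called, 6.28% fell and 1.97% rose. The 7 were NABP1, MUS81, BRCA1, RMI1, RAD51C, EME1 and FANCF, each of which also fell in SJSA-1 at the higher doses. In U2-OS limma called 0 of the 35 members, with 5 at an unadjusted p under 0.05, and 0.0804% of all genes, and no other tool was run. The difference between the lines in the 25 nM effect was called for NABP1 alone, with 1.09% of all genes called. In SJSA-1 the calls of EME1 and FANCF were lost when single arrays were left out, at -0.22 to -0.30 for EME1 (DMSO replicate 2 or 3, 25 nM replicate 1 or 3) and at -0.19 to -0.30 for FANCF (DMSO replicate 2 or 3, or any 25 nM array), and centring on the spike-ins left only that of NABP1. Of all genes 0.637% were called in SJSA-1 with that centring.

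At 400 nM in SJSA-1 22 members fell and 7 rose, where 66.4% of all genes were called, 24.9% fell and 41.4% rose. At 400 nM in U2-OS 20 fell and 6 rose, where 73.3% of all genes were called, 25% fell and 48.4% rose. The median change of the members was -0.37 in SJSA-1 and -0.34 in U2-OS, against 0.10 and 0.15 for all genes, and under the other settings those of the members ranged from -0.96 to -0.19 in SJSA-1 and from -0.74 to -0.21 in U2-OS. With spike-in centring 32 members fell and none rose in SJSA-1, among 10052 falls and 11 rises of all genes, and 24 fell and 1 rose in U2-OS, among 5386 falls and 1667 rises. 15 members fell at both 100 and 400 nM in both lines, among them BRIP1 and FANCM, whose SJSA-1 means were all under the filter intensity. With the mean of probe sets 400 nM calls were lost for RAD51C and FANCM in SJSA-1 and for BRCA1 in U2-OS. NABP2, RAD52 and XRCC3 rose at 400 nM in both lines, RAD52 with other probe sets that fell. The share of all genes meeting either joint rule was not counted. WRN, a helicase and nuclease lost in Werner syndrome, passed the threshold in no dose comparison, with changes of -0.04 ± 0.099 in SJSA-1 and -0.16 ± 0.099 in U2-OS at 100 nM.

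**Figure D1:**
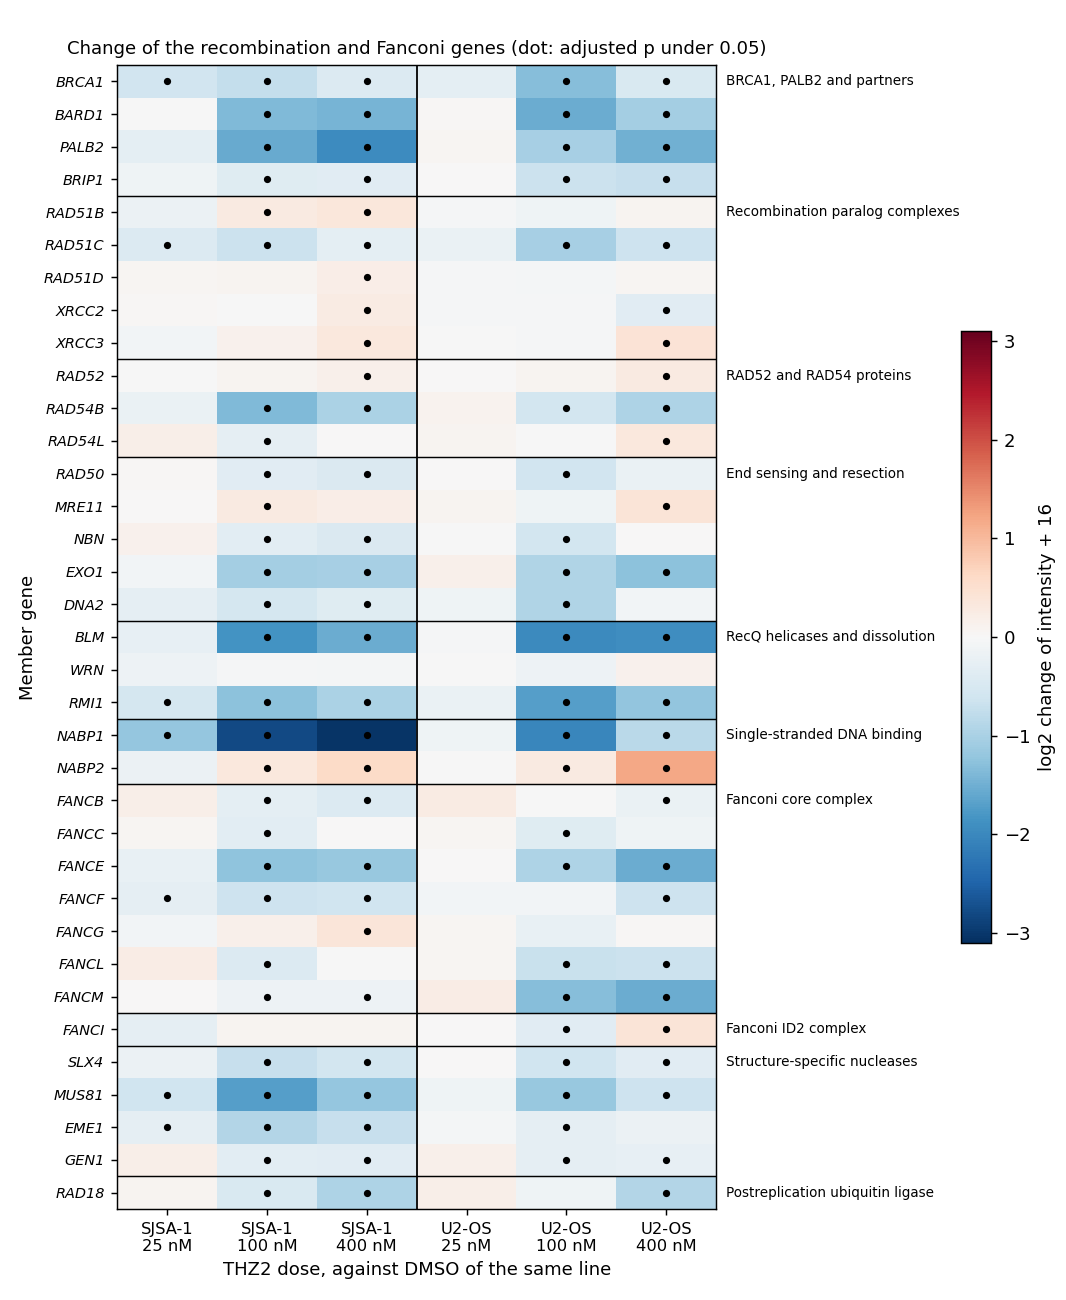
Log2 change of the intensity plus 16 of the 35 measured members (rows, grouped by role) at each THZ2 dose against DMSO of the same line (columns, SJSA-1 left, U2-OS right). Blue is lower and red higher with THZ2, and a dot marks a limma adjusted p under 0.05, with 3 arrays a group. Most rows turn blue in both lines from 100 nM on, while NABP2 is red at 100 and 400 nM and the WRN row holds no dot.

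**Figure D2:**
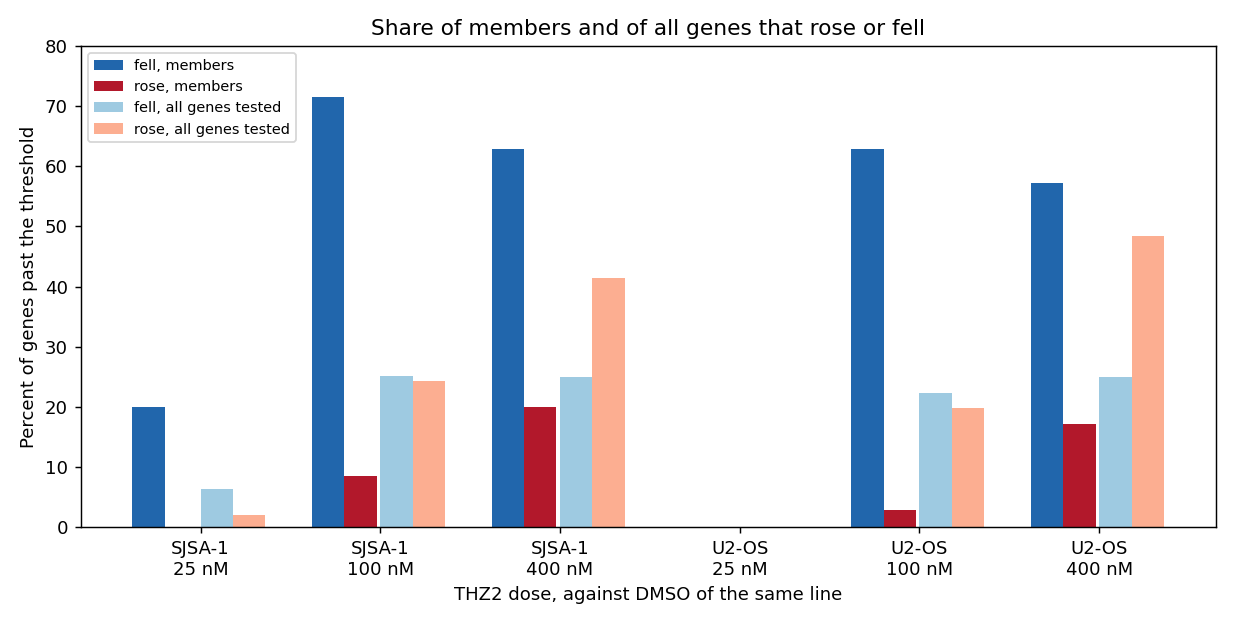
Percent of the 35 members (dark bars) and of the 16175 genes tested (pale bars) that fell (blue) or rose (red) at each dose against DMSO of the same line, at a limma adjusted p under 0.05. At 100 nM 71.4% of members and 25.1% of all genes fell in SJSA-1, and 62.9% and 22.2% in U2-OS. In U2-OS at 25 nM no member and 0.0804% of all genes passed.

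Among BRCA1, PALB2 and their partners all 4 measured members fell at 100 and at 400 nM in both lines. Every BRIP1 mean in SJSA-1 was under the filter intensity, so the count there rests on BRCA1, BARD1 and PALB2. Of all genes 25.1% fell at 100 nM and 24.9% at 400 nM in SJSA-1, and 22.2% and 25% in U2-OS. BARD1, the partner that stabilises BRCA1 and completes its ubiquitin ligase, had intensities of 24.9, 27.5 and 25.5 at 100 nM, against 104, 83.9 and 89.3 with DMSO, in SJSA-1. Its intensities in U2-OS were 35.6, 35.5 and 39.9 at 100 nM, against 135, 147 and 128 with DMSO. All treated arrays lay far below all DMSO arrays in both lines, and BARD1 changed by -1.37 ± 0.093 (limma adjusted p = 7.72e-13) in SJSA-1 and -1.53 ± 0.093 (limma adjusted p = 1.18e-13) in U2-OS. At 25 nM its means of 90.6 ± 9.7 in SJSA-1 and 142 ± 10.9 in U2-OS lay within the range of the DMSO arrays, and the step from 25 to 100 nM was -1.34 ± 0.093 (limma adjusted p = 2.05e-12) in SJSA-1 and -1.57 ± 0.093 (limma adjusted p = 7.97e-14) in U2-OS. PALB2, which links BRCA1 to BRCA2, had intensities of 16.7, 27.7 and 18.6 at 100 nM, against 109, 83.3 and 87.4 with DMSO, in SJSA-1. Its intensities in U2-OS were 40.7, 42.9 and 51.3 at 100 nM, against 110.2, 113 and 104 with DMSO. The arrays of the groups did not overlap in either line, and the changes were -1.57 ± 0.10 (limma adjusted p = 2.81e-13) in SJSA-1 and -1.04 ± 0.10 (limma adjusted p = 1.84e-09) in U2-OS. PALB2 was lower again at 400 nM, at 10.5, 12.3 and 14.4 in SJSA-1, a mean under the filter intensity and at least 7.02-fold lower than with DMSO, and at 27.7, 30.8 and 27.2 in U2-OS.

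BRCA1 itself followed another course. In SJSA-1 its intensities were 57.7, 42.8 and 46.9 at 25 nM, against 94.4, 74.5 and 75.6 with DMSO, and it had already fallen, with a change of -0.58 ± 0.10 (limma adjusted p = 2.99e-04). At 100 nM it stood at 39.7, 42.2 and 46.2 in SJSA-1, a change of -0.73 ± 0.10 (limma adjusted p = 1.07e-06) from DMSO and of -0.14 ± 0.10 (limma adjusted p = 0.276) from 25 nM, which did not pass. In U2-OS its intensities were 40.9, 39.5 and 55.1 at 100 nM, against 123, 145 and 139 with DMSO, and the 25 nM arrays stood between them at 102, 108 and 108. The U2-OS change was -1.32 ± 0.10 (limma adjusted p = 2.04e-11) at 100 nM, and -0.48 ± 0.10 (limma adjusted p = 1.77e-04) at 400 nM. Of the 5 BRCA1 probe sets the used one and 2 others fell at 100 nM in each line and the other 2 did not pass the threshold, and with the mean of all 5 the 400 nM call in U2-OS was lost at -0.12. In SJSA-1 at 400 nM the used probe set changed by -0.42 ± 0.10 (limma adjusted p = 9.19e-04), a call lost with joint quantile normalization (-0.22), and none of the 4 others passed. BRIP1, the helicase that binds the BRCT repeats of BRCA1, fell in U2-OS to 13.8 ± 1.65 at 100 nM, against 31.5 ± 2.23 with DMSO, a change of -0.67 ± 0.073 (limma adjusted p = 1.38e-08). In SJSA-1 all its group means were under the filter intensity, between 5.33 and 11.9, so its calls there carry no fold.

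The 5 paralog genes RAD51B, RAD51C, RAD51D, XRCC2 and XRCC3, whose proteins form complexes that assist strand pairing, did not move as 1 group. RAD51C, the paralog shared by both complexes, was the only one to fall at 100 nM in either line on the used probe sets. At that dose 1 other probe set each of RAD51B and RAD51D fell in U2-OS, and the other of XRCC2 fell in SJSA-1, at -0.23. Of the 3 other RAD51C probe sets 2 fell in U2-OS and 1 fell in SJSA-1, and the rest did not pass. Its intensities in SJSA-1 were 167, 189 and 224 at 100 nM, against 331, 292 and 326 with DMSO. In U2-OS they were 386, 434 and 429 at 100 nM, against 874, 893 and 852 with DMSO. The groups were well apart in both lines, with changes of -0.68 ± 0.095 (limma adjusted p = 9.24e-07) in SJSA-1 and -1.04 ± 0.095 (limma adjusted p = 4.27e-10) in U2-OS, although 2 of its 3 other probe sets rose at 400 nM in U2-OS, where the used one changed by -0.64 ± 0.095 (limma adjusted p = 8.90e-07). XRCC3, the partner of RAD51C, had intensities of 77.2, 83.3 and 73.5 at 400 nM, against 53.8, 61.4 and 61.8 with DMSO, in SJSA-1. U2-OS arrays gave 66.4, 57.8 and 62.5 at 400 nM, against 44.9, 39.6 and 41.7 with DMSO. All treated arrays were above all DMSO arrays, and XRCC3 rose by 0.33 ± 0.071 (limma adjusted p = 3.11e-04) in SJSA-1 and 0.43 ± 0.071 (limma adjusted p = 5.16e-06) in U2-OS, of which the first became -0.45 and the second 0.12, no longer called, with spike-in centring.

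XRCC2 went opposite ways at 400 nM. In SJSA-1 its intensities were 23.9, 25.8 and 20.5 at 400 nM, against 16.4, 17.1 and 17 with DMSO, and in U2-OS 52.9, 49.2 and 46, against 70.3, 66.5 and 63.5. It rose by 0.26 ± 0.066 (limma adjusted p = 0.00139) in SJSA-1, where the level is low, and fell in U2-OS, with a change of -0.34 ± 0.066 (limma adjusted p = 4.50e-05), while at 100 nM neither line passed on the used probe set. The SJSA-1 rise became -0.23 with spike-in centring and 0.06 with the mean of its 2 probe sets, both short of the threshold. RAD51B rose in SJSA-1 to 18.6 ± 1.64 at 100 nM, at least 1.42-fold over a DMSO mean under the filter intensity, and to 20.8 ± 3.2 at 400 nM, at least 1.58-fold. On the used probe sets RAD51B did not pass at any dose in U2-OS, nor did RAD51D, which rose in SJSA-1 at 400 nM by 0.20 ± 0.086 (limma adjusted p = 0.0478). That RAD51D call was lost without any 1 of the SJSA-1 DMSO arrays or 400 nM replicate 1 (0.10 to 0.21).

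RAD54B and RAD54L encode motors that help the broken end invade the sister strand, and RAD52 anneals single strands. RAD54B had intensities of 19, 24.8 and 25.5 at 100 nM, against 95.7, 78.8 and 81.6 with DMSO, in SJSA-1. In U2-OS it had 56.7, 47.2 and 45.3 at 100 nM, against 80.8, 84.7 and 79.3 with DMSO. Treated and DMSO arrays did not overlap in either line, and RAD54B changed by -1.38 ± 0.092 (limma adjusted p = 5.51e-13) in SJSA-1 and -0.57 ± 0.092 (limma adjusted p = 9.65e-06) in U2-OS. RAD54L fell at 100 nM in SJSA-1 to 51.6, 59.3 and 52.3, against 68.1, 71 and 69.6 with DMSO, a change of -0.28 ± 0.087 (limma adjusted p = 0.00851). It stood at 104, 107 and 107 at 100 nM, against 115, 101 and 107 with DMSO, in U2-OS, where the arrays overlapped, and rose there at 400 nM by 0.32 ± 0.087 (limma adjusted p = 0.00178), which became -0.06 with spike-in centring. RAD52 rose at 400 nM by 0.16 ± 0.05 (limma adjusted p = 0.00738) in SJSA-1 and 0.27 ± 0.05 (limma adjusted p = 2.55e-05) in U2-OS on the used probe set. Of its 11 other probe sets 6 fell and 5 did not pass in SJSA-1 at 400 nM, and in U2-OS 2 rose, 2 fell and 7 did not pass, so its direction depends on the probe set.

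End sensing and resection open the break. EXO1, the exonuclease of long-range resection, had intensities of 25.6, 18.8 and 23.9 at 100 nM, against 65.8, 64 and 61.4 with DMSO, in SJSA-1. Its intensities in U2-OS were 40.8, 39.4 and 35.7 at 100 nM, against 85.9, 91.8 and 88.7 with DMSO. All treated arrays lay under all DMSO arrays, with changes of -1.04 ± 0.084 (limma adjusted p = 2.83e-11) in SJSA-1 and -0.94 ± 0.084 (limma adjusted p = 3.21e-10) in U2-OS, and EXO1 stayed low at 400 nM, at -1.03 ± 0.084 and -1.28 ± 0.084. DNA2, the nuclease and helicase of the parallel resection route, fell at 100 nM to 23.1, 19 and 26.9, against 50.9, 31.6 and 39.9 with DMSO, in SJSA-1. In U2-OS it fell to 30.3, 30.9 and 28.2 at 100 nM, against 70.8, 75.8 and 69.5 with DMSO. The changes were -0.53 ± 0.098 (limma adjusted p = 5.08e-05) in SJSA-1 and -0.94 ± 0.098 (limma adjusted p = 5.83e-09) in U2-OS, and at 400 nM in U2-OS, where the arrays overlap those with DMSO, DNA2 stood at 58, 75.3 and 67.7.

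The MRE11, RAD50 and NBN proteins form the complex that first binds the end. In U2-OS at 100 nM RAD50 changed by -0.59 ± 0.14 (limma adjusted p = 9.73e-04) and NBN by -0.58 ± 0.12 (limma adjusted p = 2.56e-04), both falls, while MRE11, the nuclease of the complex, did not pass at -0.12 ± 0.10 (limma adjusted p = 0.323). None of the 4 other NBN probe sets passed in U2-OS at 100 nM (-0.27 to 0.047), and with the mean of all 5 the NBN call was lost at -0.25. In SJSA-1 at 100 nM RAD50 changed by -0.36 ± 0.14 (limma adjusted p = 0.0328), NBN by -0.34 ± 0.12 (limma adjusted p = 0.0203) and MRE11 by 0.28 ± 0.10 (limma adjusted p = 0.0235), a small rise. For all 3 the SJSA-1 arrays overlapped between 100 nM and DMSO. None of their other probe sets passed there, and with the mean of probe sets all 3 calls were lost. Each of these calls was also lost without single arrays. RAD50 was at -0.25 without DMSO replicate 1, at -0.29 without DMSO replicate 2 and at -0.21 without 100 nM replicate 1. NBN was at -0.18 without DMSO replicate 1 and at -0.21 without 100 nM replicate 1, and MRE11 at 0.23 without DMSO replicate 2 or 3 and at 0.17 without 100 nM replicate 3. NBN did not pass in U2-OS at 400 nM on the used probe set, at 0.01 ± 0.12 (limma adjusted p = 0.941), while 3 of its 4 others fell. MRE11 rose in U2-OS at 400 nM, with intensities of 251, 241 and 257 at 400 nM, against 184, 190.1 and 182 with DMSO. The groups did not overlap and the change was 0.40 ± 0.10 (limma adjusted p = 9.01e-04), and of the 4 other MRE11 probe sets 3 rose and 1 fell, while with spike-in centring it stood at 0.0052 and was not called.

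BLM and RMI1 belong to the complex that dissolves double Holliday junctions without crossing over, and BLM had the deepest fall after NABP1 at 100 nM in both lines. BLM, the helicase lost in Bloom syndrome, had intensities of 11.5, 14.1 and 14.2 at 100 nM, against 109, 75.6 and 85.6 with DMSO, in SJSA-1. U2-OS arrays gave 25.5, 25.7 and 31 at 100 nM, against 149.7, 152 and 162 with DMSO. Every treated array was far below every DMSO array, and BLM changed by -1.85 ± 0.10 (limma adjusted p = 1.22e-14) in SJSA-1 and -1.98 ± 0.10 (limma adjusted p = 5.03e-15) in U2-OS. RMI1, the scaffold of the complex, had intensities of 25.6, 32.4 and 32.9 at 100 nM, against 116, 85 and 89.3 with DMSO, in SJSA-1. In U2-OS it had 73, 60.7 and 45.8 at 100 nM, against 219.7, 226 and 237 with DMSO. The arrays did not overlap in either line, the changes were -1.28 ± 0.11 (limma adjusted p = 1.54e-10) in SJSA-1 and -1.70 ± 0.11 (limma adjusted p = 6.15e-13) in U2-OS, and all 3 other RMI1 probe sets fell too, by less. At 25 nM RMI1 had fallen in SJSA-1 to 60.5 ± 7.79, against 96.8 ± 16.9 with DMSO, a change of -0.56 ± 0.11 (limma adjusted p = 0.00124), while BLM at -0.25 ± 0.10 did not pass.

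**Figure D3:**
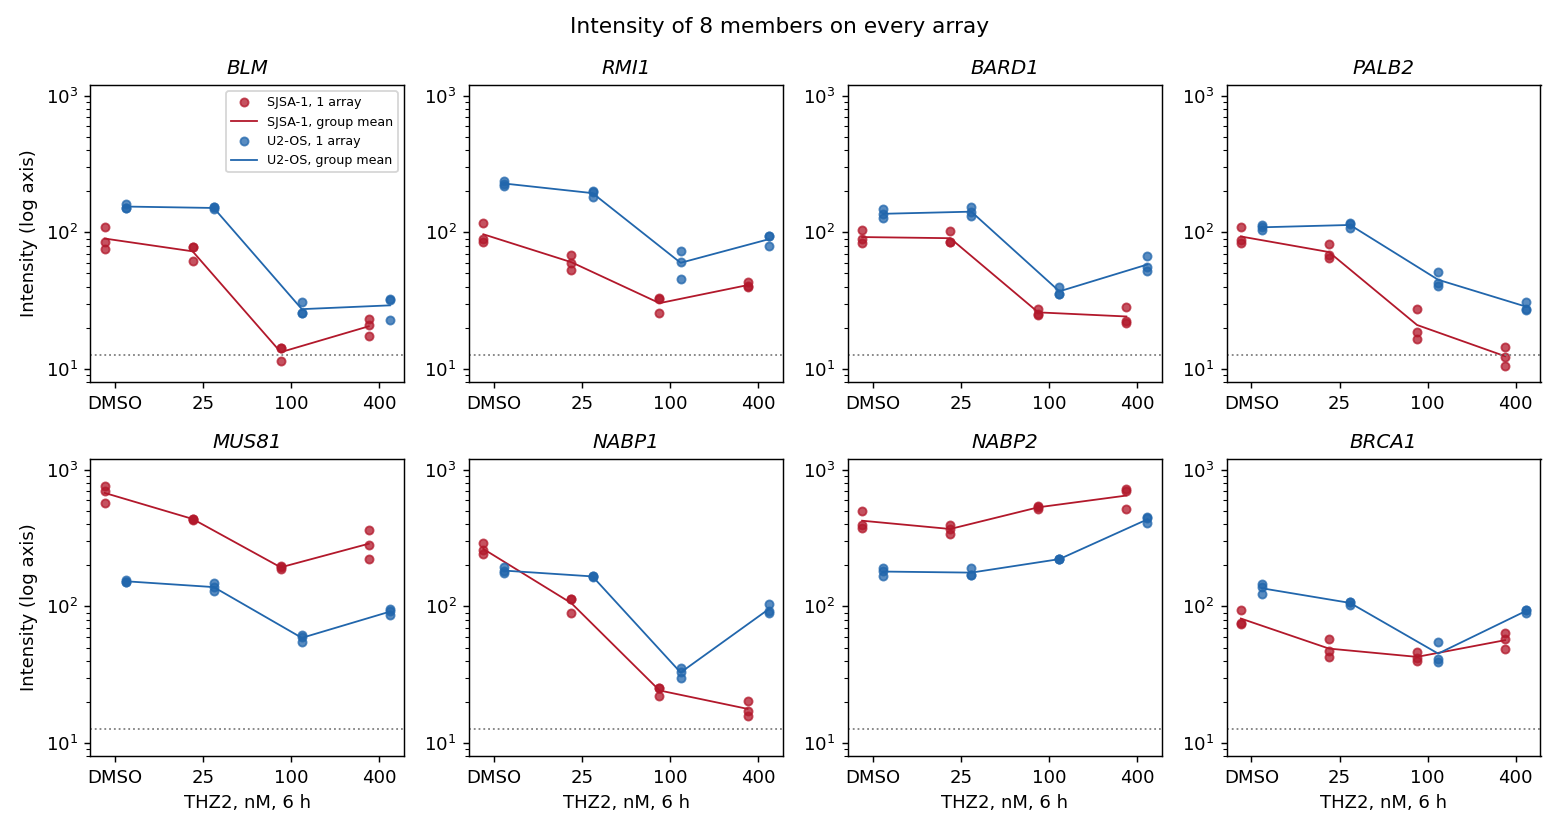
Intensity on every array (points, log axis) and group means (lines) of 8 members by THZ2 dose in SJSA-1 (red) and U2-OS (blue), with the filter intensity of 12.73 as a dotted line. BLM, RMI1, BARD1, PALB2, MUS81, NABP1 and BRCA1 are lower at 100 nM than with DMSO on every array of both lines, and NABP2 is higher. At 400 nM NABP1 is lower still in SJSA-1 and lies between DMSO and 100 nM in U2-OS. Levels between the lines, and of U2-OS at 400 nM, come from arrays normalized apart.

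NABP1 and NABP2 encode alternative single-stranded DNA binding subunits of the SOSS complex, in which INTS3 and INIP are the other subunits, and the mRNAs of the pair moved in opposite directions. NABP1 in SJSA-1 had intensities of 258, 242 and 290.0 with DMSO, 114, 89.9 and 113 at 25 nM, 25.5, 25.3 and 22 at 100 nM and 17.1, 15.8 and 20.4 at 400 nM. Each dose lay below the one before, and the changes from DMSO were -1.20 ± 0.089 (limma adjusted p = 3.09e-10) at 25 nM, -2.79 ± 0.089 (limma adjusted p = 2.61e-19) at 100 nM and -3.05 ± 0.089 (limma adjusted p = 1.76e-20) at 400 nM. The last step, from 100 to 400 nM, was -0.25 ± 0.089 (limma adjusted p = 0.0342), and its call was lost without 100 nM replicate 1 or 2 or 400 nM replicate 1 or 2 (-0.21 to -0.24). In U2-OS NABP1 had 181, 193 and 175 with DMSO, 168, 163 and 166 at 25 nM, 30.1, 35.4 and 33 at 100 nM and 91.8, 104 and 90.2 at 400 nM. The 25 nM change of -0.13 ± 0.089 (limma adjusted p = 1) did not pass, the 100 nM change was -2.03 ± 0.089 (limma adjusted p = 1.65e-16), and at 400 nM the level lay between those of DMSO and 100 nM, at -0.84 ± 0.089 (limma adjusted p = 3.07e-09). Of the 4 other NABP1 probe sets 3 fell and 1 did not pass in SJSA-1 at every dose and in U2-OS at 100 nM, whereas in U2-OS 1 fell, by 0.58, at 25 nM, and 2 fell and 1 rose at 400 nM.

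NABP2 was the member with the largest rise. In SJSA-1 its intensities were 695, 729 and 519 at 400 nM, against 377, 396 and 498 with DMSO, and in U2-OS 407, 454 and 441 at 400 nM, against 181, 191 and 168. All treated arrays were above all DMSO arrays, by a change of 0.59 ± 0.10 (limma adjusted p = 2.50e-05) in SJSA-1 and 1.20 ± 0.10 (limma adjusted p = 5.79e-11) in U2-OS, and the other NABP2 probe set rose likewise. At 100 nM the rises were 0.33 ± 0.10 (limma adjusted p = 0.0113) in SJSA-1 and 0.28 ± 0.10 (limma adjusted p = 0.0308) in U2-OS. The SJSA-1 call at 100 nM was lost without DMSO replicate 1 (0.25), and the U2-OS call without DMSO replicate 1 or 3 or any 100 nM array (0.24 to 0.29). With spike-in centring NABP2 stood at -0.45 in SJSA-1 at 400 nM and at -0.19 in both lines at 100 nM, none of them called, and at 0.82 in U2-OS at 400 nM, which was. Among the partner genes INTS3 changed in SJSA-1 at 25 nM by -0.73 ± 0.083 (limma adjusted p = 7.13e-07) and INIP by 0.55 ± 0.12 (limma adjusted p = 0.00188). In U2-OS at that dose neither passed, at -0.13 ± 0.083 for INTS3 and 0.20 ± 0.12 for INIP.

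The Fanconi core complex had 7 measured members, of which FANCL is the ubiquitin ligase subunit, FANCM the DNA translocase that anchors it, and FANCB, FANCC, FANCE, FANCF and FANCG are further subunits. At 100 nM 6 of the 7 fell in SJSA-1, where 25.1% of all genes fell, and 4 in U2-OS, where 22.2% did, and none rose. With the mean of their probe sets the SJSA-1 calls of FANCC (0.021), FANCL (-0.096) and FANCM (0.015) were lost. FANCE, which contacts the substrate, had intensities of 30.9, 44.3 and 35.8 at 100 nM, against 89.3, 119 and 119 with DMSO, in SJSA-1. Its intensities in U2-OS were 61.2, 66.5 and 68.4 at 100 nM, against 143, 145 and 137 with DMSO. The treated arrays were far below in both lines, with changes of -1.24 ± 0.12 (limma adjusted p = 7.63e-10) in SJSA-1 and -0.96 ± 0.12 (limma adjusted p = 1.32e-07) in U2-OS, and in U2-OS the 400 nM change was deeper at -1.53 ± 0.12. FANCM had intensities of 13.8, 13.2 and 13.4 at 100 nM and 6.75, 10.3 and 10.9 at 400 nM, against 53.3, 63.8 and 55.1 with DMSO, in U2-OS. It fell there, with a change of -1.31 ± 0.058 (limma adjusted p = 1.79e-16) at 100 nM, and was at least 4.51-fold lower at 400 nM, while 1 of its 2 other probe sets rose at 100 nM by 0.49. In SJSA-1 the FANCM means were between 3.45 and 5.79, all under the filter intensity, so its calls there carry no fold.

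FANCL had intensities of 165, 179 and 206 at 100 nM, against 300.2, 215 and 247 with DMSO, in SJSA-1. U2-OS arrays gave 318, 287 and 305 at 100 nM, against 470.5, 511 and 518 with DMSO. The groups did not overlap, and FANCL changed by -0.43 ± 0.096 (limma adjusted p = 4.92e-04) in SJSA-1 and -0.69 ± 0.096 (limma adjusted p = 9.87e-07) in U2-OS. Neither of its 2 other probe sets passed in SJSA-1 at 100 nM (0.043 and 0.10), and 1 of them fell in U2-OS. At 400 nM FANCL was back at 232, 247 and 272 in SJSA-1, within the DMSO range, and still at 298, 327 and 307 in U2-OS. FANCF fell at 100 nM in SJSA-1 to 56.5, 47.2 and 44.6, against 73.5, 87.4 and 99.7 with DMSO, a change of -0.65 ± 0.084 (limma adjusted p = 2.26e-07). In U2-OS FANCF stood at 44.7, 45.4 and 41.7 at 100 nM, against 46.8, 45 and 50.1 with DMSO, which did not pass, and it fell there at 400 nM, with a change of -0.64 ± 0.084 (limma adjusted p = 1.44e-07). Another FANCF probe set fell in U2-OS at 100 nM, and 1 did not pass.

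FANCB and FANCC made small moves at 100 nM, by -0.30 ± 0.084 (limma adjusted p = 0.00377) and -0.33 ± 0.072 (limma adjusted p = 4.88e-04) in SJSA-1, whereas FANCC alone passed in U2-OS, at -0.38 ± 0.072 (limma adjusted p = 1.05e-04), and 1 of its 2 other probe sets rose in each line. FANCG was the only core member to rise, in SJSA-1 at 400 nM to 124, 109.9 and 95, against 64.9, 83.3 and 95 with DMSO. The lowest treated and the highest DMSO array met at that value, the change was 0.38 ± 0.099 (limma adjusted p = 0.0018), and it became -0.46 with spike-in centring. FANCI, one of the pair that the core complex marks with ubiquitin, had intensities in U2-OS of 234, 234 and 241 at 100 nM and 400.1, 411 and 399 at 400 nM, against 288, 324 and 300.0 with DMSO. The first is a fall of -0.34 ± 0.11 (limma adjusted p = 0.016) and the second a rise of 0.39 ± 0.11 (limma adjusted p = 0.00288). The 100 nM call was lost without DMSO replicate 2 (-0.30), 1 of the 2 other FANCI probe sets rose at that dose by 0.55, and the 400 nM change was -0.01 with spike-in centring. In SJSA-1 the used FANCI probe set passed at no dose, with 0.10 ± 0.11 (limma adjusted p = 0.481) at 100 nM and 0.09 ± 0.11 (limma adjusted p = 0.497) at 400 nM, while that same other probe set rose there at all 3 doses, by 0.91 at 25 nM, 1.02 at 100 nM and 0.41 at 400 nM.

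All 4 structure-specific nuclease genes fell at 100 nM in both lines, where 25.1% of all genes fell in SJSA-1 and 22.2% in U2-OS. MUS81, the catalytic subunit of a nuclease that cuts stalled forks and joint molecules, had intensities of 187, 195 and 197 at 100 nM, against 568, 704 and 760.1 with DMSO, in SJSA-1. In U2-OS it had 54.6, 62.2 and 59.7 at 100 nM, against 152, 150.1 and 156 with DMSO. The groups were far apart in both lines, with changes of -1.72 ± 0.11 (limma adjusted p = 3.55e-13) in SJSA-1 and -1.17 ± 0.11 (limma adjusted p = 1.27e-09) in U2-OS, and at 25 nM MUS81 had fallen in SJSA-1, with a change of -0.61 ± 0.11 (limma adjusted p = 5.31e-04), and did not pass in U2-OS, at -0.13 ± 0.11 (limma adjusted p = 1). EME1, the partner of MUS81, had 47.5, 57.3 and 53.4 at 100 nM, against 106, 121 and 109.9 with DMSO, in SJSA-1. Its intensities in U2-OS were 133, 131 and 133 at 100 nM, against 153, 165 and 173 with DMSO. EME1 changed by -0.90 ± 0.083 (limma adjusted p = 3.78e-10) in SJSA-1 and -0.28 ± 0.083 (limma adjusted p = 0.00889) in U2-OS, where the call was lost without DMSO replicate 3 (-0.24). SLX4, the scaffold that holds several nucleases, changed by -0.72 ± 0.1 in SJSA-1 and -0.62 ± 0.1 in U2-OS, and GEN1, a Holliday junction resolvase with low intensities, by -0.33 ± 0.069 and -0.28 ± 0.069, in SJSA-1 at least 1.08-fold lower at 100 nM than with DMSO.

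RAD18, a ubiquitin ligase of stalled forks that acts upstream of the Fanconi proteins, fell in U2-OS at 400 nM only. In SJSA-1 its intensities were 104, 75.6 and 90.5 with DMSO, 111, 79.3 and 97 at 25 nM, 47.5, 60.1 and 75.1 at 100 nM and 38.6, 38.1 and 38.1 at 400 nM. In U2-OS they were 109.7, 115 and 121 with DMSO, 132, 141 and 123 at 25 nM, 97.1, 110.2 and 105 at 100 nM and 49, 62.6 and 52.4 at 400 nM. At 100 nM the change was -0.47 ± 0.11 (limma adjusted p = 0.00127) in SJSA-1 and -0.13 ± 0.11 (limma adjusted p = 0.357) in U2-OS. At 400 nM it was -0.96 ± 0.11 (limma adjusted p = 4.64e-08) in SJSA-1 and -0.90 ± 0.11 (limma adjusted p = 8.32e-08) in U2-OS, and in SJSA-1 the step from 100 to 400 nM was -0.49 ± 0.11 (limma adjusted p = 0.00176).

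From 25 to 100 nM 24 members fell and 5 rose in SJSA-1, where 41.6% of all genes were called, 23.1% lower and 18.6% higher. For the same step 25 fell and 1 rose in U2-OS, where 48.1% of all genes were called, 23.3% lower and 24.8% higher. From 100 to 400 nM in SJSA-1 11 members were higher and 3 lower, where 26.6% of all genes were called, 14.9% higher and 11.7% lower. Of the 25 members that fell at 100 nM, 9 were higher again at 400 nM, namely BLM, BRCA1, FANCC, FANCL, MUS81, RAD51C, RAD54B, RAD54L and RMI1, 3 were lower still, namely NABP1, PALB2 and RAD18, and for 13 the step did not pass. The 25 were picked as low on the 100 nM arrays, which are also the reference of this step, so the choice itself favours steps up. The share of all genes that fell at 100 nM and then stepped up was not counted. MUS81 had the largest step up, to 282, 359.5 and 221 at 400 nM, against 187, 195 and 197 at 100 nM, which is 0.51 ± 0.11 (limma adjusted p = 9.19e-04). FANCL followed with 0.42 ± 0.096 (limma adjusted p = 0.00129), RAD54B with 0.39 ± 0.092 (limma adjusted p = 0.00182) and RAD51C with 0.38 ± 0.095 (limma adjusted p = 0.00345). With the mean of probe sets the steps of FANCL and RAD51C were not called, nor were those of BRCA1, FANCC, NABP1 and RMI1. The number of called steps was 8 without 100 nM replicate 1, 9 without 100 nM replicate 2 or 400 nM replicate 2, 8 when the SJSA-1 arrays were fitted alone, and 1, that of RAD18, with spike-in centring. Of all genes 16.7% were called with SJSA-1 fitted alone and 9.14% with spike-in centring. In U2-OS the same step crosses arrays normalized apart and was not tested.

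Whether the lines responded unequally was tested as the change in SJSA-1 minus the change in U2-OS. At 100 nM it was called for 10 members, 6 with a lower and 4 with a higher value in SJSA-1, where 16.9% of all genes were called. At 400 nM it was called for 14 members, 8 lower and 6 higher, where 45.9% of all genes were called, a larger share than that of the members. The arrays of SJSA-1 were normalized apart from those of U2-OS, so line and array set cannot be told apart in these differences at any dose. The U2-OS side of the 400 nM difference also crosses arrays normalized apart, so line, dose and set cannot be told apart there. NABP1 was called at all 3 doses, at -1.07 ± 0.13 (limma adjusted p = 9.31e-06) for 25 nM, -0.77 ± 0.13 (limma adjusted p = 5.28e-05) for 100 nM and -2.21 ± 0.13 (limma adjusted p = 1.02e-13) for 400 nM. MUS81 and its partner EME1 both changed more deeply in SJSA-1, MUS81 by a difference of -0.55 ± 0.16 (limma adjusted p = 0.0164) at 100 nM and -0.56 ± 0.16 (limma adjusted p = 0.00568) at 400 nM, and EME1 by -0.63 ± 0.12 (limma adjusted p = 2.73e-04) and -0.54 ± 0.12 (limma adjusted p = 4.46e-04). The MUS81 difference at 100 nM was not called without SJSA-1 DMSO replicate 3 (-0.46). RAD54B differed at 100 nM by -0.80 ± 0.13 (limma adjusted p = 4.85e-05) and not at 400 nM (-0.03 ± 0.13), and FANCF likewise by -0.57 ± 0.12 (limma adjusted p = 8.81e-04) at 100 nM and not at 400 nM (0.01 ± 0.12). With the mean of its probe sets FANCF did differ at 400 nM, by -0.25 (limma adjusted p = 0.00803).

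On the used probe sets BRCA1 changed less in SJSA-1 than in U2-OS at 100 nM, with a difference of 0.59 ± 0.15 (limma adjusted p = 0.00455), and so did DNA2, at 0.41 ± 0.14 (limma adjusted p = 0.0405). With the mean of probe sets neither difference was called. Other BRCA1 probe sets at -0.82, -0.34, -0.08 and -0.05 in U2-OS stood at -0.52, -0.32, -0.19 and -0.01 in SJSA-1. The DNA2 call was lost without any 1 of the arrays concerned other than SJSA-1 DMSO replicate 1 and SJSA-1 100 nM replicate 2 (0.29 to 0.43). PALB2 changed more deeply in SJSA-1, by -0.53 ± 0.14 (limma adjusted p = 0.00968) at 100 nM and -0.45 ± 0.14 (limma adjusted p = 0.0117) at 400 nM. At 400 nM NABP2 differed by -0.61 ± 0.15 (limma adjusted p = 0.00126), XRCC2 by 0.60 ± 0.093 (limma adjusted p = 7.81e-06) and FANCL by 0.65 ± 0.14 (limma adjusted p = 3.11e-04). The FANCL difference was not called with spike-in centring (0.12) or with the mean of its probe sets (0.21). The differences of FANCM, at 1.16 ± 0.082 and 1.39 ± 0.082, of BRIP1 at 400 nM and of RAD51B at 100 nM set U2-OS against SJSA-1 means that are under or near the filter intensity. With spike-in centring 3 members were called at 100 nM, where 4.19% of all genes were, and 8 at 400 nM, where 34.7% were. The calls lost under it were those of NABP1 at 25 nM (-1.06) and, at 100 nM, of NABP1 (-0.32), RAD54B (-0.49), EME1 (-0.47), FANCF (-0.47), MUS81 (-0.47), PALB2 (-0.15), DNA2 (0.70) and BRCA1 (0.82), with that of PALB2 (-0.09) among those at 400 nM. Without SJSA-1 DMSO replicate 1 the count at 100 nM was 16.

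**Figure D4:**
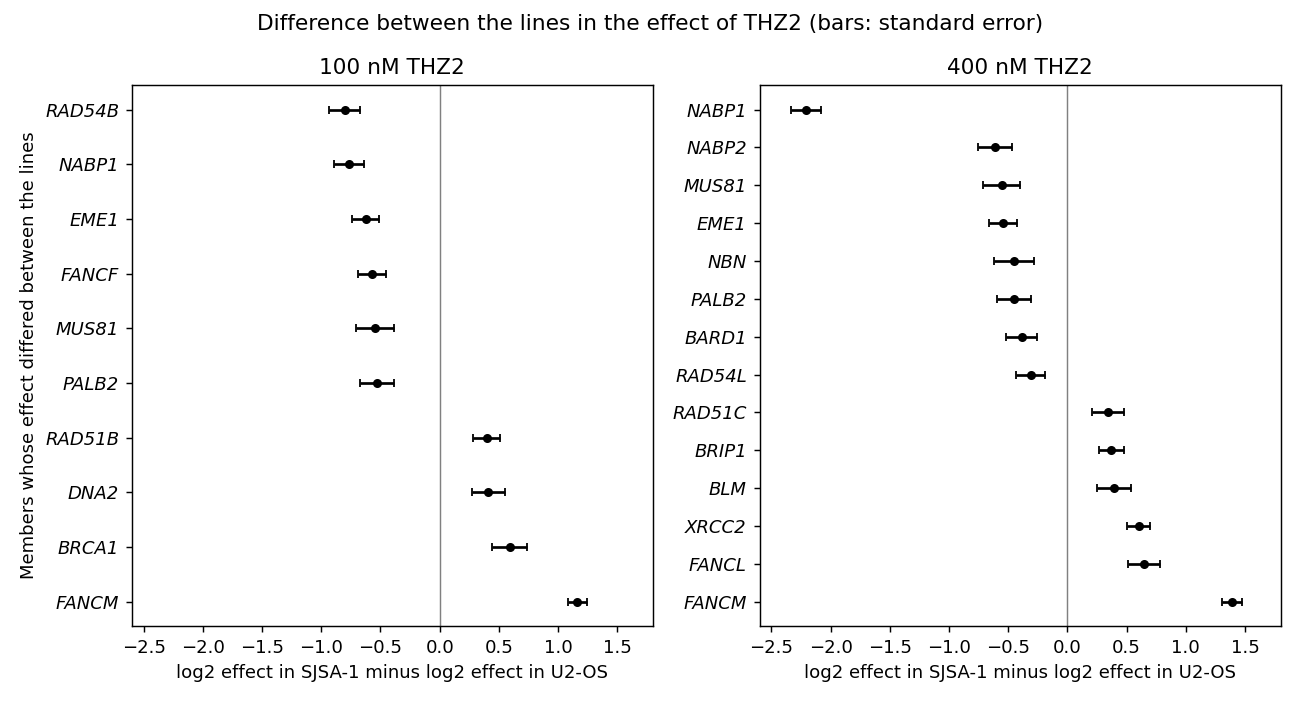
Members whose effect of THZ2 differed between the lines at a limma adjusted p under 0.05, at 100 nM (left) and 400 nM (right). Points are the log2 effect in SJSA-1 minus that in U2-OS, bars its standard error, with 3 arrays a group. NABP1 at 400 nM stands farthest out at -2.21, and FANCM, dim in SJSA-1, is farthest on the other side at both doses. The arrays of the lines were normalized apart.

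Further genes of the pathway were taken from a list of 51 partners, of which 47 were measured. At 100 nM 24 of the 47 fell and 6 rose in SJSA-1, so that 63.8% were called against 49.4% of all genes, with a median of -0.24. In U2-OS 26 fell and 3 rose, 61.7% against 42% of all genes, with a median of -0.34. At 400 nM 19 fell and 13 rose in SJSA-1 (68.1% against 66.4%), and 17 fell and 16 rose in U2-OS (70.2% against 73.3%). Counting falls alone, 51.1% fell at 100 nM in SJSA-1 and 55.3% in U2-OS, against 25.1% and 22.2% of all genes. The shares that fell at 400 nM were 40.4% and 36.2%, against 24.9% and 25%. UBE2T, the conjugating enzyme that works with FANCL, fell at 100 nM, with a change of -1.26 ± 0.074 (limma adjusted p = 3.33e-14) in SJSA-1 and -1.31 ± 0.074 (limma adjusted p = 2.20e-14) in U2-OS. RFWD3, a ubiquitin ligase that clears RPA from breaks, changed by -1.63 ± 0.10 (limma adjusted p = 1.17e-13) in SJSA-1 and -1.31 ± 0.10 (limma adjusted p = 1.68e-11) in U2-OS. SFR1, an accessory factor of recombination, changed at 100 nM by -0.79 ± 0.11 (limma adjusted p = 6.37e-07) in SJSA-1 and -1.44 ± 0.11 (limma adjusted p = 8.77e-12) in U2-OS. UIMC1, the ubiquitin reader of a BRCA1 complex, changed at 100 nM by -1.17 ± 0.09 (limma adjusted p = 9.46e-12) in SJSA-1 and -1.03 ± 0.09 (limma adjusted p = 1.75e-10) in U2-OS. FIGNL1, an AAA ATPase of recombination, changed at 400 nM by -1.97 ± 0.14 (limma adjusted p = 2.21e-12) in SJSA-1 and -2.05 ± 0.14 (limma adjusted p = 7.41e-13) in U2-OS. BABAM2, a scaffold of the same BRCA1 complex as UIMC1, rose at 400 nM by 0.51 ± 0.084 (limma adjusted p = 8.48e-06) in SJSA-1 and 0.81 ± 0.084 (limma adjusted p = 2.11e-09) in U2-OS.

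Nonhomologous end joining, the competing route of break repair, was read from 13 measured genes. At 100 nM 7 fell and 1 rose in SJSA-1, 61.5% called against 49.4% of all genes, and 5 fell and 1 rose in U2-OS, 46.2% against 42%. At 400 nM 6 fell and 1 rose in SJSA-1 (53.8% against 66.4%) and 6 fell and 3 rose in U2-OS (69.2% against 73.3%). Counting falls alone, 53.8% fell at 100 nM in SJSA-1 and 38.5% in U2-OS, against 25.1% and 22.2% of all genes. The share that fell at 400 nM was 46.2% in each line, against 24.9% in SJSA-1 and 25% in U2-OS. DCLRE1C, the Artemis nuclease, changed by -0.65 ± 0.11 (limma adjusted p = 1.75e-05) in SJSA-1 and -0.46 ± 0.11 (limma adjusted p = 0.0013) in U2-OS at 100 nM. XRCC4, the scaffold of the joining ligase, fell at 100 nM in U2-OS, with a change of -0.76 ± 0.085 (limma adjusted p = 2.03e-08). In SJSA-1 it did not pass, at -0.20 ± 0.085 (limma adjusted p = 0.0518). Its SJSA-1 means, 12.3 with DMSO and 8.58 at 100 nM, were both under the filter intensity, so the lines cannot be compared on it. RIF1, which restrains resection, changed at 400 nM by -1.32 ± 0.15 (limma adjusted p = 1.56e-08) in SJSA-1 and -1.02 ± 0.15 (limma adjusted p = 8.24e-07) in U2-OS.

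Many recombination genes are also transcribed most in S phase, so 39 S phase genes that are no members were read beside them. At 100 nM 20 of the 39 fell and 2 rose in SJSA-1, 56.4% called against 49.4% of all genes, and 15 fell and 2 rose in U2-OS, 43.6% against 42%. At 400 nM 19 fell and 3 rose in SJSA-1 (56.4% against 66.4%) and 16 fell and 14 rose in U2-OS (76.9% against 73.3%). Counting falls alone, 51.3% fell at 100 nM in SJSA-1 and 38.5% in U2-OS, against 25.1% and 22.2% of all genes. The shares that fell at 400 nM were 48.7% and 41%, against 24.9% and 25%. CDC6, which loads the replicative helicase, changed at 100 nM by -2.28 ± 0.081 (limma adjusted p = 1.68e-18) in SJSA-1 and -1.46 ± 0.081 (limma adjusted p = 2.06e-14) in U2-OS. RFC4, a clamp loader subunit, changed by -2.18 ± 0.09 (limma adjusted p = 3.31e-17) in SJSA-1 and -1.47 ± 0.09 (limma adjusted p = 1.34e-13) in U2-OS at 100 nM. At 400 nM E2F1, a transcription factor of S phase entry, rose in U2-OS by 0.91 ± 0.11 (limma adjusted p = 6.26e-08) and did not pass in SJSA-1, at 0.20 ± 0.11 (limma adjusted p = 0.128). The part of these genes' shift in that of the members was not tested.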

How the data were processed

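Intensities of 49372 probe sets on 24 arrays were read from the deposited table and taken to be on a linear scale. In SJSA-1 100% of the values lay at whole hundredths of log2, against 9.9% in U2-OS. The submitters' processing notes name MAS5 and RMA, without versions or the step each served, and the array sets normalized apart were inferred from shared values. The 44988 probe sets naming 1 gene gave 18132 genes, each taken as its brightest probe set, and 16175 with a highest group mean at or over 12.73, the 30th percentile, were tested. Changes of log2(intensity + 16) were fitted with limma 3.58.1 in R 4.3.3 (8 group means, 16 residual degrees of freedom, trended variance) and adjusted by Benjamini-Hochberg within each comparison at 0.05. A group mean under 12.73 gave only a bound for a fold. The fit was tested on simulated data. Members and lists were chosen with earlier results of these data known. Genes named from the partner, end joining and S phase lists were among the largest called falls and rises of at least 1 dose comparison. Other centrings, filters, pseudocounts, probe set means, the replicate block and leaving out arrays were tried.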

Additional observations from a re-analysis of the deposited data

Results flagged for a closer look

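The effect of THZ2 differed between SJSA-1 and U2-OS, by limma's test of the difference itself, in 25 results on 19 members. Of all genes 1.09% were called at 25 nM, 16.9% at 100 nM and 45.9% at 400 nM, the last a larger share than that of the members (40%). Values are the log2 change in SJSA-1 minus that in U2-OS. At 25 nM NABP1 differed by -1.07. At 100 nM the value was -0.80 for RAD54B, -0.77 for NABP1, -0.63 for EME1, -0.57 for FANCF, -0.55 for MUS81 and -0.53 for PALB2, the members with the lower effect in SJSA-1. On the other side it was 0.40 for RAD51B, 0.41 for DNA2, 0.59 for BRCA1 and 1.16 for FANCM. The RAD51B difference was not called without U2-OS 100 nM replicate 3 (0.30). At 400 nM the value was -2.21 for NABP1, -0.61 for NABP2, -0.56 for MUS81, -0.54 for EME1, -0.45 for NBN, -0.45 for PALB2, -0.39 for BARD1 and -0.31 for RAD54L. It was 0.34 for RAD51C, 0.37 for BRIP1, 0.39 for BLM, 0.60 for XRCC2, 0.65 for FANCL and 1.39 for FANCM. The SJSA-1 means of FANCM and BRIP1 were all under the filter intensity, and so was that of RAD51B with DMSO. At 400 nM the calls of NBN (-0.30 to -0.44), BARD1 (-0.30 to -0.34), RAD54L (-0.27 to -0.31), RAD51C (0.25 to 0.34) and BLM (0.29 to 0.37) were each lost without some single arrays. With spike-in centring or the mean of its probe sets the FANCL difference was not called (0.12 and 0.21). The mean of probe sets also lost the 400 nM calls of NBN, RAD51C and BRIP1 and the 100 nM calls of BRCA1 and DNA2. Of the 4 other NBN probe sets 3 fell at 400 nM in U2-OS and all 4 in SJSA-1. The arrays of the lines were normalized apart, and the U2-OS arrays at 400 nM also apart from their DMSO arrays.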

How the results depend on the processing

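The table gives no detection calls, each group has 3 arrays, and the array sets were normalized apart, which limits what can be said of small changes and of dim members. Of the single-gene values under other settings 6745 kept direction and side of the threshold, 279 lost and 157 gained a call, and 40 reversed. Leaving out 1 array gave 24 to 27 called members in SJSA-1 and 21 to 23 in U2-OS at 100 nM, 27 to 29 and 25 to 27 at 400 nM, and 5 to 9 and 0 to 0 at 25 nM. The step from 25 to 100 nM gave 23 to 29 in SJSA-1 and 22 to 25 in U2-OS, and that from 100 to 400 nM in SJSA-1 8 to 14. The line difference gave 1 to 2 at 25 nM (2 without SJSA-1 DMSO replicate 1), 8 to 16 at 100 nM (16 without the same array) and 11 to 19 at 400 nM. The shares of all genes called without single arrays are not given here. Centring on the spike-ins gave 1 called member in SJSA-1 at 25 nM, 0, 3 and 8 for the line difference at 25, 100 and 400 nM, and 1 for the step from 100 to 400 nM. Of all genes it called 0.637%, then 0%, 4.19% and 34.7% for the line difference, and 9.14% for the step. Fitting SJSA-1 alone gave 4 called members at 25 nM and 8 for the step from 100 to 400 nM, and a pseudocount of 64 gave 1 in U2-OS at 25 nM. The shares of all genes were 3.52%, 16.7% and 0.26%.

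Centring on the spike-ins reversed these values, and the cause was not tested. In SJSA-1 at 400 nM FANCC became -0.53, FANCG -0.46, FANCI -0.84, MRE11 -0.54, NABP2 -0.45, RAD51B -0.12, RAD51D -0.45, RAD52 -0.24, RAD54L -0.72, XRCC2 -0.23 and XRCC3 -0.45, and at 100 nM MRE11 became -0.15 and NABP2 -0.19. In U2-OS NABP2 became -0.19 at 100 nM, and FANCI -0.014 and RAD54L -0.059 at 400 nM. For the step from 25 to 100 nM FANCI became -0.038, MRE11 -0.081 and XRCC3 -0.14 in SJSA-1, and NABP2 -0.12 and XRCC2 -0.39 in U2-OS. For the step from 100 to 400 nM in SJSA-1 BRCA1 became -0.045, FANCL -0.064, RAD51C -0.12, RAD54L -0.073, RMI1 -0.012, XRCC2 -0.0053 and XRCC3 -0.18. The 400 nM line difference of RAD51C became -0.19. Averaging the probe sets of each gene turned RAD52 to -0.21 in SJSA-1 and -0.13 in U2-OS at 100 nM, to -0.13 and -0.019 at 400 nM, and to -0.13 and -0.099 for the step from 25 to 100 nM, where its probe sets move in both directions. It also turned FANCC to 0.021 and FANCM to 0.015 in SJSA-1 at 100 nM, NBN to -0.33 in U2-OS at 400 nM, and the line difference of GEN1 at 100 nM to 0.16 and of FANCF at 400 nM to -0.25.

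Deviations of same-numbered arrays correlated at -0.63 to 0.42 (median 0.066) in SJSA-1 and at -0.08 to 0.33 (median 0.12, against -0.07 for different numbers) in U2-OS. All 3 same-numbered pairs exceeded 0.1 between 100 and 400 nM in U2-OS (0.15, 0.31 and 0.33), a step that was not tested, but not in any comparison that was, so the numbers were not taken to pair the arrays. With the replicate number as a block the called members numbered 28 in SJSA-1 and 23 in U2-OS at 100 nM, 11 and 15 for the line difference at 100 and 400 nM, and 13 for the step from 100 to 400 nM. The shares of all genes were 50.1% and 43.3%, 17.6% and 47.2%, and 27.5%. Of 420 single-gene values 2 calls were lost under the block, FANCF in SJSA-1 at 25 nM (-0.28) and the RMI1 step from 100 to 400 nM (0.30), and 3 were gained.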
